A study of Saccharomyces cerevisiae with 12 samples.

Results

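The transcript levels of budding yeast lacking the DNA helicase Sgs1 were set against those of the wild type while both were exposed to tangeretin, a methoxylated flavone of citrus peel. The comparison rests on 6 of the study's 12 arrays, 3 of sgs1Δ with tangeretin and 3 of the wild type (WT) with tangeretin, chosen by their titles. It covers the 6288 genes that passed a detection filter. Of these, 425 lie on chromosome II and 5863 lie outside it, and the former are described apart. Of the chromosome II genes, 422 carry a locus ID that begins with YBL or YBR, 117 of the left arm and 305 of the right, and 3 are RNA genes placed there by RefSeq. For 12 of the 425 the probe also matched other genes.

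Both strains are MATα haploids with the alleles his3Δ1, leu2Δ0, met15Δ0, ura3Δ0 and trp1Δ::HPH. Both also carry the plasmid pRS414-GAL1-HO-TRP1, in which the GAL1 promoter stands before the gene of the HO endonuclease. By label the mutant, YCL1098, differs from the WT, YCL1071, only in sgs1Δ::kanMX4. All groups grew for 4 h at 30 °C without tryptophan and with 0.2% DMSO, the solvent, and the groups compared here also had 30 µM tangeretin. Each strain is 1 named isolate, and no label ties the 3 repeats to separate cultures. In the headers of the files the arrays of a group carry 1 sample number, so the p-values may measure only technical spread.

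Sgs1 is the RecQ helicase of yeast. With Top3 and Rmi1 it takes apart the crossed DNA structures of recombination, and it acts at stalled replication forks and in the resection of broken ends. Cells without it recombine more often, and they rely on nucleases such as Mus81. Several of the genes described below belong to regulons of known logic: Zap1 switches on zinc uptake when zinc is short, and Pho4, Aft1 and Gcn4 act likewise for phosphate, iron and amino acids. The genes of α and a cells are set by the mating type locus.

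Values are log2 of the array intensity after quantile normalization. A change is sgs1Δ minus WT under tangeretin unless stated, with its standard error (SE) from limma and n = 3 arrays per strain. The threshold for a call was an adjusted p of 0.05 (limma, Benjamini-Hochberg over all 6288 genes), and only called genes are said to rise or fall. Median raw intensities were 780, 956 and 830 for WT and 1367.5, 1530 and 1467 for sgs1Δ, so every sgs1Δ array was brighter than every WT array. Between 92.6% and 95.6% of the probes were detected on these arrays. Arrays of a strain correlated across genes at 0.994 to 0.997, and arrays of different strains at 0.971 to 0.977. Sequences of the genes were not used here.

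The deleted gene was read first. SGS1 had raw intensities of 151, 169 and 168 on the WT arrays and of 4, 5 and 7 on the sgs1Δ arrays. It was detected on every WT array and on no sgs1Δ array, and was at least 4.33-fold lower in sgs1Δ (limma, adjusted p = 7.92e-09). Its nearest neighbours in gene order did not fall with it. GCV2, of the glycine cleavage system, rose by 0.67 (SE 0.23, adjusted p = 0.0319), and SPG5, a proteasome assembly factor, had a change of 0.13 and was not called.

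Chromosome II read higher in sgs1Δ as a block. The median of its genes lay above the median of all other genes by 0.33, 0.34 and 0.41 on the WT arrays and by 1.36, 1.32 and 1.33 on the sgs1Δ arrays. The strains did not overlap, and their means, 0.36 ± 0.04 and 1.33 ± 0.02 (SD, n = 3), differed by 0.97 on the log2 scale. With 20 ways to assign 3 of 6 arrays, the two-sided exact permutation test gave p = 0.1, the smallest value the design allows. Gene by gene, the median change was 0.67 on chromosome II and -0.07 outside it. The copy number of the chromosome was not measured by these arrays.

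Of the 425 chromosome II genes, 337 (79.3%) rose and 6 (1.41%) fell. Outside chromosome II, 960 of 5863 genes (16.4%) rose and 1590 (27.1%) fell. The other 15 nuclear chromosomes had median changes from -0.14 to -0.03, with 10.9% to 20.3% of their genes called higher. The left arm of chromosome II had a median change of 0.63, with 84 of 117 genes called higher, and the right arm of 0.68, with 251 of 305. Along the chromosome the running median over 25 genes stayed between 0.47 and 0.90 for the 388 genes that could be placed in order, so no stretch came down to the level of the other chromosomes. Of the 425 genes, 180 (42.4%) had a change between 0.5 and 1, and 30 lay below 0. Split by brightness into 4 groups of 106 or 107 genes, the dimmest had a median change of 0.57, the next groups 0.78 and 0.73, and the brightest 0.51.

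**Figure D1:**
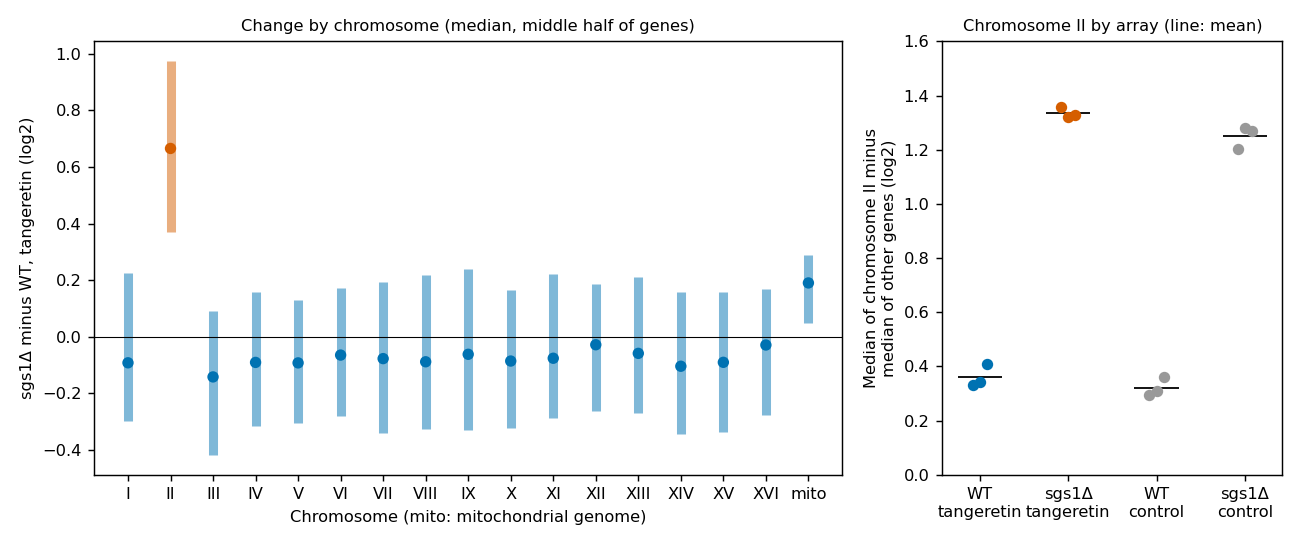
Left: change of the genes of each chromosome (sgs1Δ minus WT under tangeretin, log2), with the median as a point and the 25th to 75th percentile of the genes as a bar. Right: median of chromosome II genes minus the median of all other genes (log2) on each array, with the group mean as a line. Chromosome II stands at 0.67 while the other nuclear chromosomes lie between -0.14 and -0.03, and in both media each sgs1Δ array lies above each WT array.

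**Figure D2:**
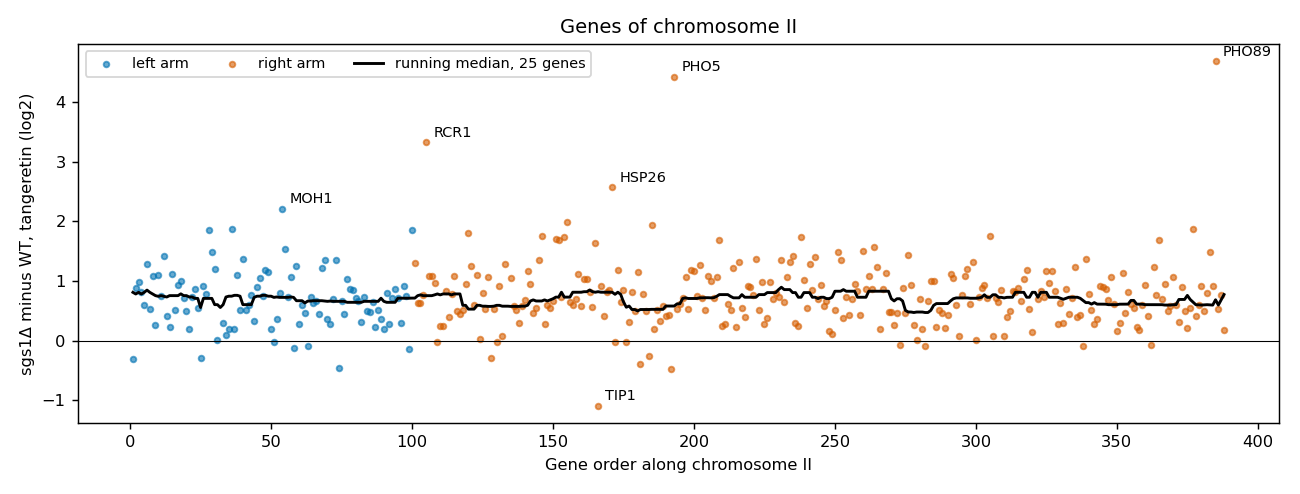
Change of 388 chromosome II genes (sgs1Δ minus WT under tangeretin, log2) against their order along the chromosome, coloured by arm, with the running median over 25 genes as a line. The line stays between 0.47 and 0.90. PHO89, PHO5, RCR1, HSP26 and MOH1 stand above it, and TIP1 lies below 0.

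Single chromosome II genes departed from the block. PHO89, a sodium-coupled phosphate transporter, read 7.0, 7.26 and 6.76 in WT and 11.62, 11.96 and 11.49 in sgs1Δ, a rise of 4.68 (SE 0.16, adjusted p = 5.51e-11). PHO5, the secreted acid phosphatase, read 9.59, 9.50 and 9.80 in WT and 14.11, 14.10 and 13.95 in sgs1Δ, a rise of 4.43 (SE 0.10). For both genes all sgs1Δ arrays lay far above all WT arrays, 25.7-fold and 21.5-fold on the averages. A second probe, shared by PHO3 and PHO5, had a change of 0.41, far from the 4.43 of the PHO5 probe. The cause of that difference between probes was not tested. HSP26, a small heat shock protein, rose by 2.57 (SE 0.12), MOH1, a gene of stationary phase, by 2.21 (SE 0.09) and MNC1 by 1.99 (SE 0.12). RCR1, a membrane protein tied to wall chitin, owed much of the size of its change to 1 array. It read 10.93, 10.75 and 5.92 in WT and 12.46, 12.48 and 12.63 in sgs1Δ, and its change of 3.32 (SE 0.89) became 1.68 (adjusted p = 4e-06) without WT array 3.

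The 6 chromosome II genes called lower were TIP1, PHO3, YBL029W, TEC1, YBL113C and CDS1. TIP1, a cell wall mannoprotein, read 15.12, 15.25 and 15.30 in WT and 14.04, 14.27 and 14.10 in sgs1Δ and fell, with a change of -1.09 (SE 0.09, adjusted p = 7.33e-07). PHO3, an acid phosphatase next to PHO5 that thiamine represses, had a change of -0.48 (SE 0.14), and TEC1, a transcription factor of filamentous growth, of -0.39 (SE 0.10). YBL029W had -0.46, YBL113C -0.30 and CDS1, of phospholipid synthesis, -0.29.

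To read the genes of chromosome II against their own chromosome, each array's gap between chromosome II and the rest was subtracted. In that fit 252 of 425 (59.3%) were called, 40 higher and 212 lower, with a median of -0.31. Centred instead on the median deviation of its genes from their own means, a choice made after seeing the data, 223 were called, 91 higher and 132 lower, with a median of -0.07 as outside the chromosome. On the latter scale PHO89 stood at 3.95, PHO5 at 3.69, HSP26 at 1.83, MOH1 at 1.47 and MNC1 at 1.25. At the low end TIP1 stood at -1.83, PHO3 at -1.22, YBL029W at -1.20 and TEC1 at -1.13.

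Over all chromosomes 2893 of 6288 genes (46%) were called. Outside chromosome II the arrays of the strains did not overlap for 3266 of 5863 genes (55.7%). The rule for naming the largest changes required that lack of overlap, so for those genes it is no separate support. Rises of at least 2-fold numbered 120 outside chromosome II and 101 on it, and falls of that size 72 and 1. Because brightness moved with strain, the fit was repeated with the log2 of each array's median raw intensity as a covariate. It called 1106 genes, of which 992 were among the 2893 and in the same direction, and 2753 of the 2893 kept their sign. On chromosome II it called 239 genes higher and 2 lower, with a median change of 0.62. Calls fell by over 1.5 times in 31 of the 43 gene lists used here, and for those lists the counts of the fit with brightness stand beside the others, in the same order. Counts of lists outside chromosome II are read against 16.4% of all genes there called higher and 27.1% called lower. The median size of the 2893 changes shrank from 0.50 to 0.38, and their median SE grew from 0.11 to 0.16. The split of 960 higher and 1590 lower outside chromosome II became 1162 and 1352 with cyclic loess, 1131 and 1325 with quantiles taken without chromosome II genes, and 396 and 469 with brightness as a covariate. Of the called genes named in the text, GCV2, CDS1, PHO80, MEP3 and TOP2 changed sign in the fit with brightness. The cause of the brightness difference was not tested.

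The largest falls were in genes of the Zap1 regulon. ZPS1, a cell surface protein made when zinc is short, read 15.96, 15.82 and 15.84 in WT and 10.72, 10.56 and 10.61 in sgs1Δ, 37.9-fold lower (change -5.24, SE 0.09, adjusted p = 4.17e-14). ZRT1, the high-affinity zinc transporter, was at the scanner's ceiling on all 3 WT arrays and read 11.27, 11.22 and 11.21 in sgs1Δ, at least 26.7-fold lower (adjusted p = 3.61e-14). For both genes the sgs1Δ arrays lay below the WT arrays without overlap. ADH4, an alcohol dehydrogenase made when zinc is short, changed by -2.79 (SE 0.09), VEL1 by -2.90 (SE 0.11) and its relative YOR387C by -2.51 (SE 0.11). The low-affinity transporter FET4 changed by -1.54, the membrane protein genes IZH1 and IZH4 by -1.30 and -2.03, the vacuolar zinc carriers ZRT3 and ZRC1 by -0.63 and -0.44, and the activator gene ZAP1 itself by -0.48. In all, 16 of 27 zinc genes outside chromosome II fell and 6 rose, against 27.1% and 16.4% of all genes there, with a median of -0.44. The genes that rose included ADE17, of purine synthesis, at 0.90, and CTT1, the cytosolic catalase, at 0.57. Not every listed Zap1 gene fell, and ZRT2, of low-affinity uptake, had -0.18 and was not called.

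Most phosphate genes moved the other way. Of 25 measured outside chromosome II, 15 rose and 3 fell, with a median of 0.55. SPL2, a regulator of phosphate transport, read 7.28, 7.04 and 7.14 in WT and 11.02, 11.03 and 11.001 in sgs1Δ, a rise of 3.86 (SE 0.09, adjusted p = 5.74e-13). The acid phosphatases PHO11 and PHO12, which share a probe and are not told apart, read 9.68, 9.60 and 9.85 in WT and 13.12, 13.07 and 13.18 in sgs1Δ (3.42, SE 0.09). Both probes were separated without overlap, as PHO5 and PHO89 of chromosome II were. PHM8, a nucleotide phosphatase, rose by 1.75 (SE 0.10). VTC3, VTC1 and VTC4, subunits of the complex that makes polyphosphate, rose by 1.75, 1.07 and 0.76, and PHO81, the inhibitor of the kinase that restrains Pho4, by 0.84. The 3 that fell were the low-affinity transporters PHO90 (-0.58) and PHO91 (-0.28) and the cyclin PHO80 (-0.31), a partner of that kinase. The probe of the transporter PHO84 was not detected on any array and was not tested.

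The main α cell transcripts rose in sgs1Δ, although both strains are MATα. Of 8 probes of that list 4 were called higher and 3 lower. MF(ALPHA)1, the main α-factor gene, read 10.69, 10.49 and 10.73 in WT and 14.83, 14.70 and 14.74 in sgs1Δ, 17.4-fold higher (change 4.12, SE 0.10, adjusted p = 1.68e-12). MF(ALPHA)2, the minor α-factor gene, read 8.35, 8.34 and 8.47 in WT and 12.08, 12.01 and 11.98 in sgs1Δ (3.64, SE 0.09). STE3, the a-factor receptor, rose by 2.36 (SE 0.12) and SAG1, the α-agglutinin, by 1.98 (SE 0.09), and none of these 4 genes overlapped between the strains. The probes of the α regulators fell: HMLALPHA1 had a change of -0.99, the probe shared by HMLALPHA1 and MATALPHA1 -0.79 and HMLALPHA2 -0.30. Silent and expressed copies of these genes share sequence and are not told apart here.

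Several genes of a cells rose as well. Of 10, 6 were called higher and none lower, with a median of 0.51. AGA2, the adhesion subunit of a-agglutinin, read 10.65, 10.33 and 9.92 in WT and 12.39, 12.08 and 12.13 in sgs1Δ (1.90, SE 0.17). MFA1, an a-factor gene, rose by 1.48 (SE 0.10), STE2, the α-factor receptor, by 0.75 (SE 0.13), MFA2 by 0.64, ASG7 by 0.61 and the a-factor exporter STE6 by 0.40. All 8 α cell and all 10 a cell probes were detected on every one of the 6 arrays. The summed normalized intensity of the a cell genes was 16859 to 19132 on the WT arrays and 24859 to 28324 on the sgs1Δ arrays, and that of the α cell genes 39384 to 45988 and 66824 to 71170. A sum weighs bright probes most, and of the 8 α cell probes 4 rose and 3 fell. The part of cells of another mating type was not tested, and in bulk RNA fewer cells of a type and less RNA per cell cannot be told apart. Of 31 pheromone pathway genes, 7 rose and 6 fell, close to the shares of all genes, or 4 and 4 with brightness. PRM4 was highest among them at 1.84 (SE 0.09) and PRM9 lowest at -1.32 (SE 0.10), and SST2, which shuts off the pheromone signal, had -0.66 (SE 0.08).

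**Figure D3:**
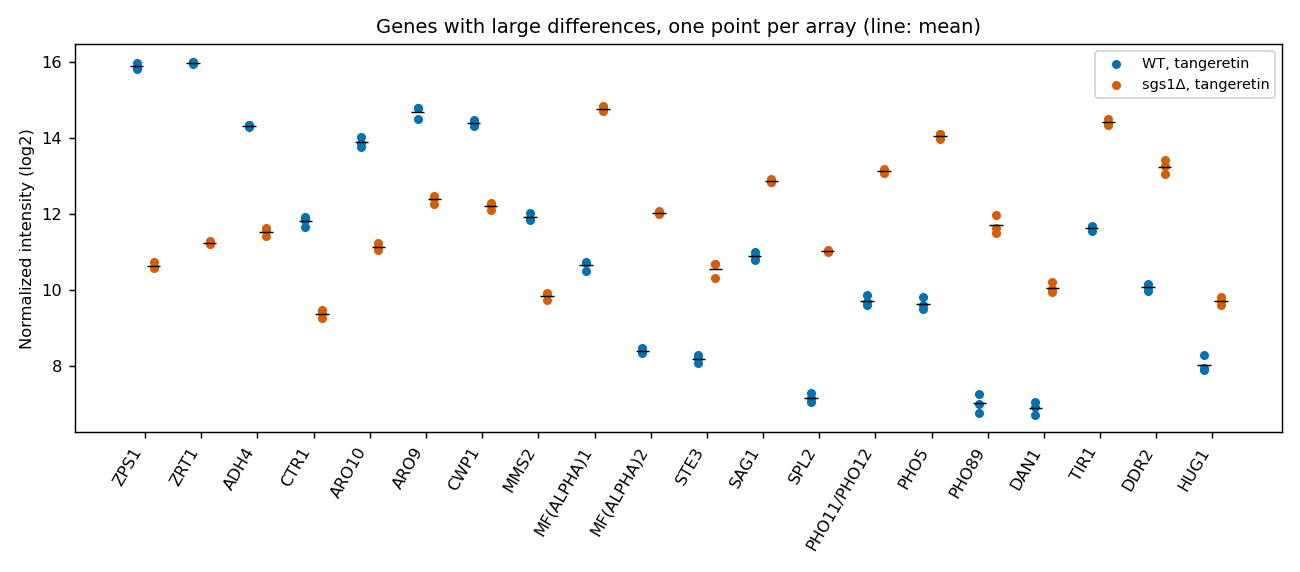
Normalized intensity (log2) of 20 genes on each of the 3 WT and 3 sgs1Δ arrays under tangeretin, 1 point per array, with the group mean as a line. No gene shown overlaps between the strains. Lack of overlap was a condition for naming the largest changes, and 55.7% of all genes outside chromosome II met it. ZPS1, ZRT1, ADH4, CTR1, ARO10, ARO9, CWP1 and MMS2 are lower in sgs1Δ, and the other 12 are higher.

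Most late sterol synthesis genes rose. Of 20 late ergosterol genes, 14 rose and 1 fell, with a median of 0.69, while of 11 early genes 2 rose and 2 fell, or 1 and 0 with brightness. HES1, a sterol-binding protein, read 6.27, 6.2 and 6.44 in WT and 8.35, 8.40 and 8.19 in sgs1Δ (2.01, SE 0.10, adjusted p = 3.3e-09). CYB5, the cytochrome that feeds electrons to sterol enzymes, rose by 2.13 (SE 0.23), ERG28, a scaffold of the demethylation enzymes, by 1.65 (SE 0.11), the desaturase ERG3 by 1.55 (SE 0.12) and the methyl oxidase ERG25 by 1.17 (SE 0.10). UPC2, an activator of these genes, rose by 1.20, and its relative ECM22 was the 1 that fell, at -0.53. ERG26 had a change of 1.77 but an SE of 0.76 and was not called. With each array left out in turn its change stayed between 1.68 and 1.85, and its SE pools the spread of all 4 groups. In the early steps ERG8 (1.18) and ERG10 (0.81) rose, and HMG2 (-0.28) and BTS1 (-0.51) fell.

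Upc2 also drives mannoproteins made when oxygen is short. Of 18 genes of that DAN/TIR list, 10 rose and 4 fell, or 8 and 1 with brightness. DAN1 read 7.03, 6.90 and 6.71 in WT and 10.01, 10.21 and 9.93 in sgs1Δ (3.17, SE 0.13, adjusted p = 3.84e-10). TIR1 read 11.66, 11.64 and 11.54 in WT and 14.48, 14.39 and 14.34 in sgs1Δ (2.79, SE 0.08), with DAN4 at 1.90 (SE 0.10) and TIR3 at 1.45 (SE 0.09). The list also holds genes that do not encode mannoproteins, and of these HEM13 of heme synthesis (-0.52) and ANB1 (-0.77) fell. The mannoprotein genes were not uniform, since TIR2 (-0.53) and TIR4 (-0.60) fell. Cross-hybridisation among these related genes was not tested. In the aerobic wall CWP1, a mannoprotein, read 14.38, 14.30 and 14.45 in WT and 12.22, 12.11 and 12.27 in sgs1Δ (-2.18, SE 0.09), and the glycosidase UTR2 fell as well (-0.81, SE 0.09). PIR3 (1.70, SE 0.13) and GSC2, the stress-induced glucan synthase (1.38, SE 0.10), rose. Of 35 cell wall genes 10 rose and 4 fell, or 8 and 13 with 75th percentile scaling and 4 and 2 with brightness.

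Most iron genes rose. Of 31 genes in the list of Aft1 and other iron genes, 20 were called higher and 3 lower, with a median of 0.42. SIT1, a siderophore transporter, read 10.60, 10.78 and 10.82 in WT and 12.47, 12.79 and 12.49 in sgs1Δ (1.85, SE 0.17). HMX1, the heme oxygenase, rose by 1.37 (SE 0.11), ENB1, the enterobactin transporter, by 1.09 (SE 0.10), the multicopper oxidase FET3 by 0.89 and its partner, the permease FTR1, by 0.75 (SE 0.07). The activator gene AFT1 was at 0.95. The metalloreductase FRE1 (-0.77), the mannoprotein FIT1 (-0.43) and the vacuolar importer CCC1 (-0.36) fell.

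Copper genes moved in both directions. CTR1, the high-affinity copper transporter, read 11.64, 11.83 and 11.92 in WT and 9.47, 9.24 and 9.38 in sgs1Δ (-2.43, SE 0.10, adjusted p = 2.88e-10), with no overlap. The reductase FRE7 was at -1.23 (SE 0.11) and COX17, a copper chaperone for cytochrome oxidase, at -0.65 (SE 0.09). A metallothionein probe, CUP1-1, rose by 1.46, and the activator gene MAC1 by 0.49. Of 13 copper genes 6 rose and 3 fell, with a median of 0.28 that became -0.02 with 75th percentile scaling. With brightness as a covariate 1 was higher and 3 were lower, so the balance of calls turned, with a median of 0.02.

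Sulfur and methionine genes rose in 18 of 37 cases and fell in 4, with a median of 0.19. STR3, a cystathionine lyase, read 8.69, 8.76 and 8.63 in WT and 10.50, 10.48 and 10.84 in sgs1Δ (1.91, SE 0.12). MET5, a subunit of sulfite reductase, rose by 1.48 (SE 0.10), MET10, the other subunit, by 1.33, the regulator MET28 by 1.45 (SE 0.10) and MET2, of homoserine acetylation, by 1.36 (SE 0.11). The sulfate assimilation genes MET3, MET14 and MET16 rose by 1.31, 1.20 and 1.20. The activator MET4 (-0.28), its partner MET31 (-0.68) and the S-methylmethionine permease MMP1 (-0.84) fell. Of 20 arginine and proline genes 9 rose and none fell, led by the breakdown enzymes CAR2 (1.56, SE 0.08) and CAR1 (1.44, SE 0.21), with ORT1 (0.78, SE 0.13) and ARG2 (0.70, SE 0.12) of synthesis below them. Of the 20, 2 were called higher and 1 lower with brightness as a covariate.

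Of 51 amino acid genes under Gcn4, 27 rose and 5 fell, with a median of 0.29. The fit with brightness called 7 higher and none lower. GDH1, the glutamate dehydrogenase of synthesis, read 12.41, 12.61 and 12.79 in WT and 14.41, 14.31 and 14.01 in sgs1Δ (1.64, SE 0.13). SER3, of serine synthesis, rose by 1.47 (SE 0.13), ILV2 and ILV5, of branched chain synthesis, by 1.29 and 0.69, and LEU1, at the ceiling on all 3 sgs1Δ arrays, was at least 2.58-fold higher. Of the 5 that fell, ARO7, the chorismate mutase, was lowest at -0.58.

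Genes of aromatic amino acid breakdown fell more often than they rose. ARO10, a decarboxylase, read 13.76, 13.86 and 14.02 in WT and 11.12, 11.23 and 11.03 in sgs1Δ, 6.77-fold lower (change -2.76, SE 0.10, adjusted p = 1.26e-10). ARO9, a transaminase, read 14.79, 14.78 and 14.48 in WT and 12.48, 12.41 and 12.25 in sgs1Δ (-2.30, SE 0.12). The strains did not overlap for either gene. ESBP6, a relative of monocarboxylate carriers, had -1.87 (SE 0.13) and the alcohol acetyltransferase ATF1 -1.18 (SE 0.09), whereas its relative ATF2 rose by 1.54. Of 17 genes of this list 9 fell and 4 rose, with a median of -0.44.

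Among nitrogen genes and permeases 18 of 36 rose and 6 fell, or 9 and 1 with brightness. AGP1, a broad amino acid permease, rose by 1.19 (SE 0.08), the ammonium permeases MEP1 and MEP3 by 1.19 and 1.01, and the GATA factor GAT1 by 0.76 (SE 0.11), while the peptide transporter PTR2 fell (-0.98, SE 0.11). SNO1 and SNZ1, a pair for vitamin B6 synthesis, rose by 1.21 and 0.75. Of 27 purine and one-carbon genes 7 rose, ADE6 most at 0.94 (SE 0.23), and 3 fell, the inosine monophosphate dehydrogenase IMD2 most at -0.62 (SE 0.12). The fit with brightness called none of these higher and 3 lower, and 75th percentile scaling 5 higher and 7 lower.

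Called phospholipid synthesis genes under Ino2 and Ino4 mostly fell. INO1, the inositol phosphate synthase, read 11.48, 11.35 and 11.64 in WT and 10.14, 10.05 and 9.91 in sgs1Δ (-1.46, SE 0.12, adjusted p = 6.26e-07). CHO1, of phosphatidylserine synthesis, had -1.03 (SE 0.14), OPI3, of phosphatidylcholine synthesis, -0.82, EPT1 -0.80 (SE 0.09) and the inositol transporter ITR1 -0.66 (SE 0.10). The repressor gene OPI1 fell too, at -0.66. Of 23 genes 10 fell and 2 rose, with a median of -0.39.

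General stress genes of the Msn2 type rose in 23 of 40 cases and fell in 5, with a median of 0.40. DDR2, a small stress protein, read 10.07, 9.96 and 10.14 in WT and 13.40, 13.25 and 13.05 in sgs1Δ, 9.04-fold higher (change 3.18, SE 0.11, adjusted p = 5.51e-11). GRE1 rose by 2.24 (SE 0.11), GPP2, a glycerol phosphatase, by 1.93 (SE 0.13) and HSP12, a membrane-stabilising protein, by 1.58 (SE 0.10). The glycogen genes GSY1 (-0.64), GSY2 (-0.35), UGP1 (-0.52) and GLC3 (-0.36) were among those that fell. Of 35 chaperone genes 13 rose and 3 fell, or 5 and 2 with brightness. The mitochondrial disaggregase HSP78 read 7.69, 8.41 and 8.24 in WT and 9.97, 10.42 and 10.19 in sgs1Δ (2.08, SE 0.25), its cytosolic relative HSP104 rose by 0.78, and the cochaperone STI1 was lowest at -0.66 (SE 0.09). Of 27 oxidative stress genes 8 rose and 2 fell, or 5 and 1 with brightness, the peroxiredoxin TSA2 highest at 1.41 (SE 0.08).

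Most genes that build ribosomes fell. Of 82, 48 were called lower and none higher, with a median of -0.40, and with brightness as a covariate 37 lower and none higher. SRP40, a nucleolar protein, read 13.37, 13.37 and 13.47 in WT and 12.41, 12.38 and 12.58 in sgs1Δ (-0.94, SE 0.10). SDA1, of large subunit export, had -0.87 (SE 0.09), UTP4, of the small subunit processome, -0.83 (SE 0.09) and NOP12 -0.82 (SE 0.09). Ribosomal proteins did not move as a list: of 71 large subunit genes 10 rose and 3 fell, and of 52 small subunit genes 6 rose and 9 fell. With 75th percentile scaling these counts were 4 and 33, and 2 and 31, with medians of -0.26 and -0.27 in place of 0.03 and -0.01. The fit with brightness called none of the large subunit genes and 1 small subunit gene, which was lower. RPS9A stood apart from the rest of its list, as it read 14.94, 15.02 and 15.01 in WT and 13.32, 13.47 and 13.27 in sgs1Δ (-1.64, SE 0.10).

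In the list of Sgs1 partners and backup nucleases 8 of 20 genes outside chromosome II fell, SGS1 included, and 3 rose. RMI1 had a change of -0.06 (SE 0.12), TOP3 of -0.08 (SE 0.11) and MUS81 of 0.08 (SE 0.10), and none of these was called. The antirecombinase SRS2 rose by 0.41 (SE 0.11), TOP2, the type II topoisomerase, by 0.55, while the Smc5-Smc6 subunit genes NSE5 (-0.93, SE 0.09) and NSE4 (-0.43), the resection nuclease EXO1 (-0.52, SE 0.09) and the fork helicase RRM3 (-0.50) fell. With brightness as a covariate 2 of the list were lower and none higher. MMS4, the partner of MUS81, and SLX1 lie on chromosome II and rose by 0.53 and 1.03. Of all genes of that chromosome 79.3% rose, with a median change of 0.67 over the chromosome.

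MMS2, a ubiquitin-conjugating factor of error-free damage bypass, was the lowest repair gene after SGS1. It read 11.88, 12.03 and 11.84 in WT and 9.88, 9.92 and 9.73 in sgs1Δ (-2.07, SE 0.09, adjusted p = 1.06e-09), with no overlap. Its neighbours in gene order, SNR10 (-0.26) and MAD1 (-0.13), were not called, nor was its partner UBC13 (0.13). HUG1, an inhibitor of ribonucleotide reductase induced by DNA damage, read 8.27, 7.88 and 7.93 in WT and 9.81, 9.60 and 9.69 in sgs1Δ (1.67, SE 0.12). RNR3, another damage-induced gene, read 8.02, 7.98 and 7.80 in WT and 8.02, 7.89 and 7.83 in sgs1Δ (-0.02, SE 0.14), so the strains overlapped and it was not called. RNR1 fell (-0.50) and RNR4 rose (0.66), and of 23 genes of that list 7 rose and 4 fell, or 4 and 2 with brightness.

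Of 22 recombination genes 3 rose and 3 fell, or 1 and none with brightness, SAE2, of end resection, lowest at -0.71 (SE 0.12). Of 29 excision, mismatch and bypass genes 7 rose and 5 fell, or none and 1 with brightness, with the uracil glycosylase UNG1 at -0.64 (SE 0.10). Of 16 checkpoint genes outside chromosome II 5 fell and none rose, close to the 27.1% lower among all genes there: RAD24 (-0.69, SE 0.11), PDS1 (-0.59, SE 0.10), LCD1 (-0.51, SE 0.12), TOF1 (-0.44, SE 0.11) and PTC2 (-0.38). The 4 checkpoint genes on chromosome II rose, the kinases MEC1, TEL1 and CHK1 by 1.36, 0.71 and 1.69 and the phosphatase PTC3 by 1.19, where 79.3% of all genes of that chromosome rose. None of the 16 was called with brightness as a covariate.

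Of 37 replication genes outside chromosome II 16 fell and 2 rose, with a median of -0.21, and the licensing factor CDC6 was at -0.66 (SE 0.10), the polymerase subunit DPB2 at -0.60 (SE 0.11) and CDC45, of the fork helicase, at -0.56 (SE 0.09). All 6 on chromosome II rose, as did 79.3% of that chromosome's genes, among them the helicase subunits MCM2 (0.71) and MCM7 (1.08). With brightness as a covariate 3 of the 37 were lower and none higher. Of 10 histone and histone regulator genes outside chromosome II 6 fell and none rose, HTA1 most at -0.60 (SE 0.12), with the regulators SPT21 at -0.54 and SPT10 at -0.33. Of the 10, 1 was lower with brightness as a covariate. Of the 6 of that list on chromosome II 2 rose and none fell, with a median of 0.16, where 79.3% of all genes rose. Among these, the histone gene HTA2 rose by 0.75, while its partner HTB2 had -0.14 and was not called.

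Called cell cycle genes mostly fell, cyclins of G1 and S phase among them. CLN1, a G1 cyclin, read 11.12, 10.96 and 10.91 in WT and 9.76, 9.54 and 9.73 in sgs1Δ (-1.32, SE 0.12), with no overlap. The S phase cyclin CLB6 had -1.18 (SE 0.14), the phosphatase MIH1 -0.87 (SE 0.09), PCL1 -0.86 (SE 0.09), CLN2 -0.65 and CLB5 -0.46. In all, 14 of 28 fell and 3 rose, or 7 and 1 with brightness as a covariate. Of 28 tubulin and kinetochore genes 6 fell and 1 rose, and none was called with brightness. Of 19 telomere and silencing genes 4 rose and 5 fell, close to the shares of all genes outside chromosome II, or 1 and none with brightness. The deacetylase SIR2 read 12.22, 12.25 and 11.63 in WT and 11.15, 11.20 and 10.88 in sgs1Δ (-0.96, SE 0.17).

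**Figure D4:**
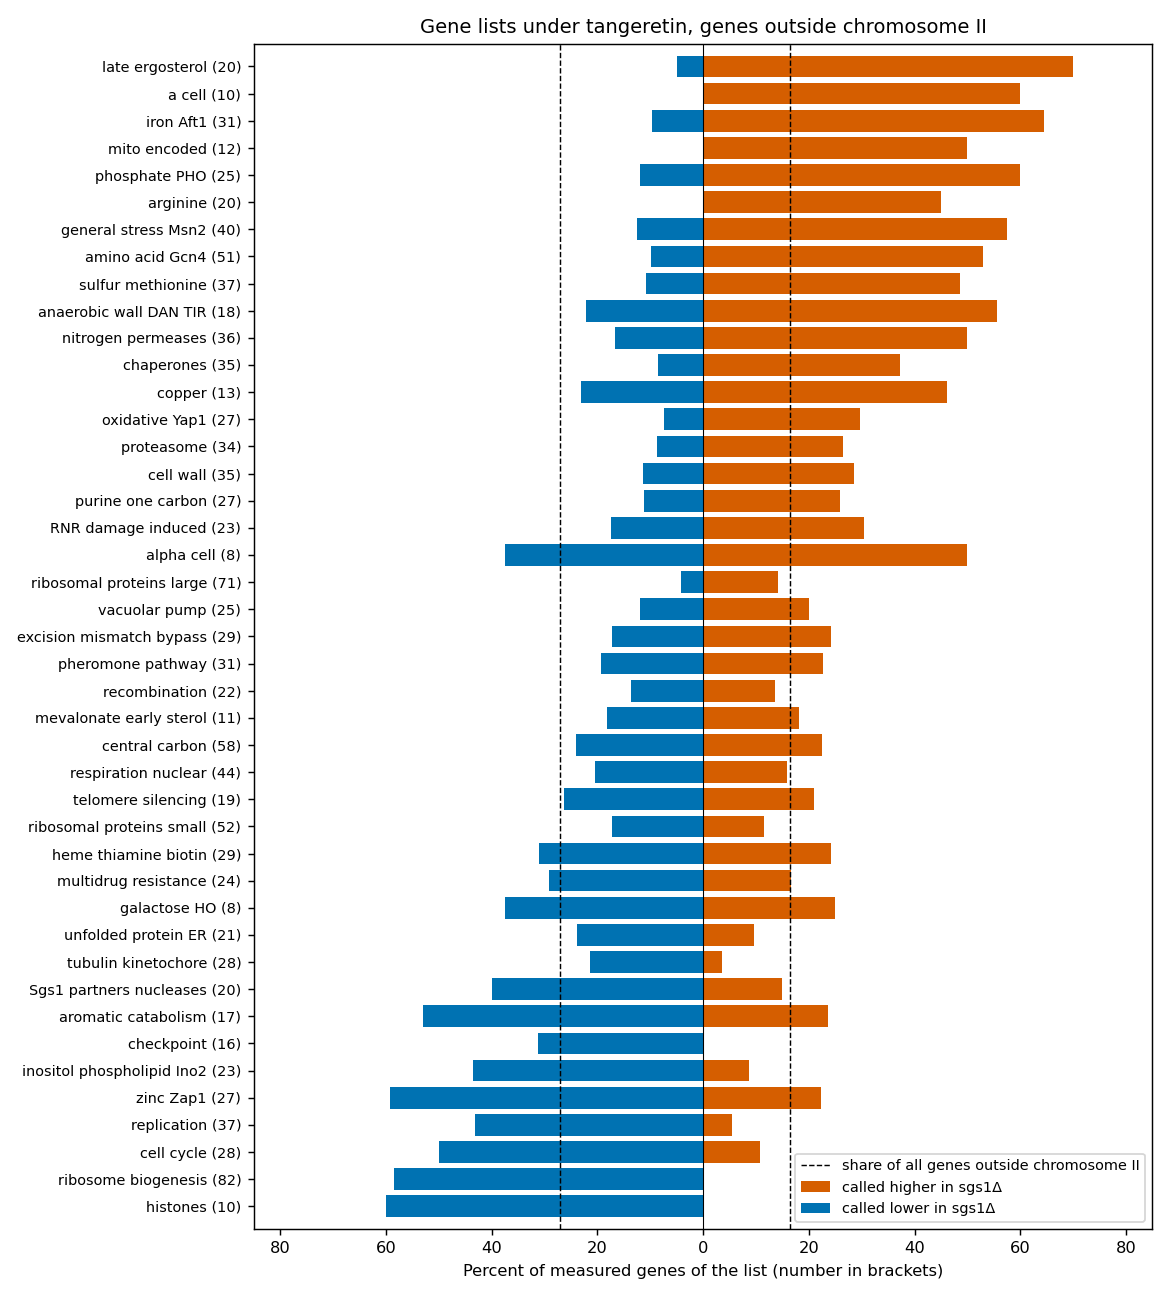
Percent of the measured genes of each of 43 gene lists called higher (right) or lower (left) in sgs1Δ under tangeretin, for genes outside chromosome II, with the number measured in brackets and dashed lines at the shares of all genes there (16.4% higher, 27.1% lower). Late ergosterol genes stand at the top with 14 of 20 higher, and histone genes with 6 of 10 lower and ribosome biogenesis genes with 48 of 82 lower at the bottom.

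Energy and carbon genes gave mixed lists. Of 12 mitochondrially encoded genes 6 rose and none fell, with the ATP synthase subunits ATP8 at 0.56 and OLI1 at 0.54. With 75th percentile scaling 3 were higher and 2 lower, and with brightness 2 were higher. Of 44 nuclear respiratory genes 7 rose and 9 fell, or 5 and 4 with brightness, with the activator subunit HAP4 at -0.69 (SE 0.08). Of 58 central carbon genes 13 rose (22.4%) and 14 fell (24.1%), near the shares of all genes outside chromosome II, or 10 and 7 with brightness. They ran from ADR1, an activator used on ethanol (-1.21, SE 0.10), and the hexose transporter HXT7 (-1.14, SE 0.12) to its relative HXT5 (0.94, SE 0.09).

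Of 24 multidrug resistance genes 4 rose (16.7%) and 7 fell (29.2%), close to the 16.4% and 27.1% of all genes outside chromosome II. The transporter QDR2 rose by 1.24 (SE 0.13), and RSB1, of sphingoid base efflux (-1.05, SE 0.10), QDR1 (-0.91, SE 0.12) and the acid pump PDR12 (-0.85, SE 0.08) fell. PDR5, the main drug pump, read 13.17, 13.32 and 12.95 in WT and 13.33, 12.97 and 13.32 in sgs1Δ, which overlapped, and was not called (0.06, SE 0.16, adjusted p = 0.789). Proteasome genes had 9 of 34 higher and 3 lower. With brightness 1 was higher and none lower, the median turned from 0.15 to -0.06, and 4 were higher without WT tangeretin array 1 or sgs1Δ tangeretin array 2. Genes of the vacuolar pump and proteases had 5 of 25 higher and 3 lower, or 2 and 1 with brightness and 4 and 6 with 75th percentile scaling. Heme, thiamine and biotin genes had 7 of 29 higher and 9 lower, or 5 and 1 with brightness and 10 and 7 with 75th percentile scaling. Genes of the unfolded protein response had 2 of 21 higher and 5 lower, or 1 and 2 with brightness.

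Genes outside the lists were among the extremes. PBI1 read 7.08, 7.24 and 6.82 in WT and 11.09, 11.07 and 11.23 in sgs1Δ (4.08, SE 0.17). YMR317W, which is uncharacterised, rose by 3.64 (SE 0.12), and SET4, a SET domain protein, by 2.45 (SE 0.08). Genes next to them in order changed far less, as ATP15 beside PBI1 (-0.22), ADH6 beside YMR317W (-0.27) and PAM16 beside SET4 (0.29), of which ATP15 alone was called.

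Genes of the plasmid and of galactose use were followed because both strains carry GAL1-HO-TRP1. TRP1, the selected marker, whose chromosomal copy is replaced in both strains, rose by 0.37 (SE 0.09, adjusted p = 0.00499). HO read 8.43, 8.73 and 8.53 in WT and 7.53, 7.93 and 8.05 in sgs1Δ and fell (-0.73, SE 0.13, adjusted p = 0.000515), and its plasmid and chromosomal copies are not told apart. GAL1, on chromosome II, rose by 0.94 (SE 0.10), and GAL10 and GAL7 of the same cluster by 0.51 and 0.44. Chromosome II as a whole had 79.3% of its genes higher and a median change of 0.67. Off that chromosome the permease GAL2 (-0.58) and the activator GAL4 (-0.44) fell, and the list of 8 had 2 higher and 3 lower, or none and 1 with brightness.

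The strain difference was then set beside the same difference on the 6 arrays of cells without tangeretin. These comparisons use different arrays, but share the normalization, the choice of genes, the estimate of the spread and the isolate of each strain. Without tangeretin 3024 of 6288 genes (48.1%) were called. Of the 2893 genes called under tangeretin, 2060 (71.2%) were called in the same direction without it, which is 68.1% of the calls made there, and 18 in the opposite direction. Of the 294 that changed at least 2-fold under tangeretin, 290 were called alike without it. Across genes the changes correlated at 0.85, and genes are not independent replicates. The chromosome II gap was 0.93 without tangeretin against 0.97 with it. Gene by gene the order was the other way, with chromosome II median changes of 0.72 without tangeretin and 0.67 with it. ZPS1 stood at -5.52 against -5.24, PHO5 at 4.60 against 4.43, MF(ALPHA)1 at 3.55 against 4.12 and DDR2 at 2.70 against 3.18. Ribosome biogenesis had a median of -0.16 without tangeretin, with 30 lower and 4 higher, against -0.40 with it.

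**Figure D5:**
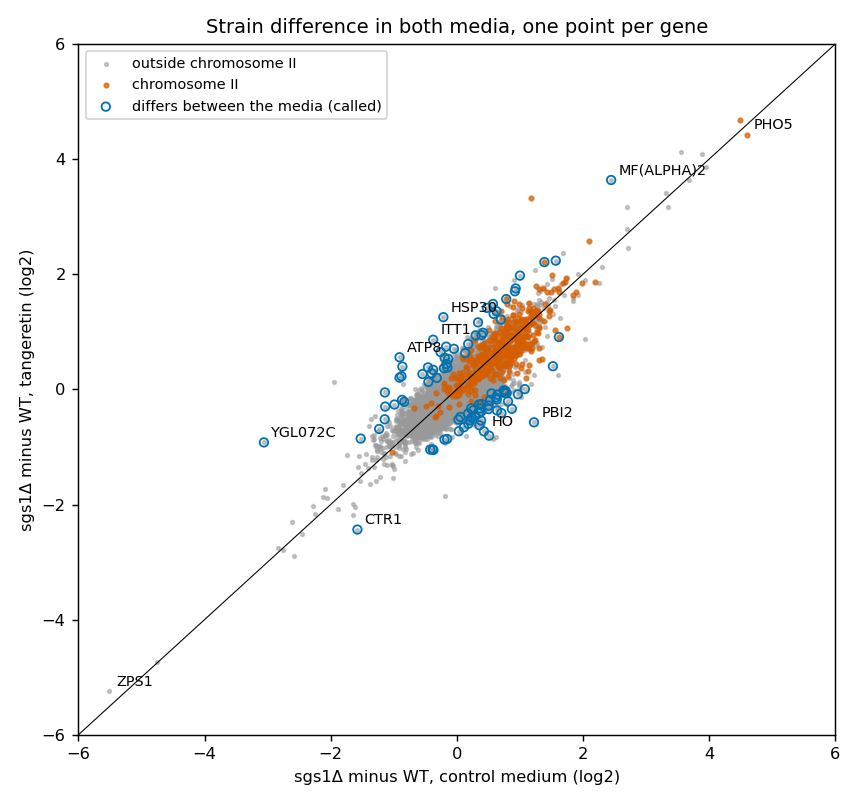
Strain difference (sgs1Δ minus WT, log2) under tangeretin against that in control medium, 1 point per gene, with chromosome II coloured and genes whose difference was called different between the media ringed. The line marks equal values. ZPS1 and PHO5 lie near the line, and YGL072C, HSP30, ATP8 and HO lie off it.

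The interaction tested whether the strain difference depended on tangeretin. It called 93 genes (1.48%), 47 higher and 46 lower, 19 of them by at least 2-fold. YGL072C, an open reading frame of unknown function between AFT1 and HSF1, read 9.97, 9.86 and 10.10 in WT and 9.17, 8.94 and 9.05 in sgs1Δ. Its strain difference was -0.92 under tangeretin and -3.06 without it, an interaction of 2.14 (SE 0.16, limma adjusted p = 1.48e-05). HSP30, a membrane protein made under stress, rose under tangeretin (1.25, SE 0.14) and was at -0.21 without it, an interaction of 1.47. ATP8, ITT1, a modulator of translation termination, and YOR053W rose under tangeretin and fell without it, with interactions of 1.47, 1.24 and 1.26. The rise of YOR053W was at the threshold (0.40, limma adjusted p = 0.0498). It was 0.63 (adjusted p = 0.000608) without WT tangeretin array 2 and 0.27 (adjusted p = 0.205) without WT tangeretin array 1. MF(ALPHA)2 and SAG1 were higher in sgs1Δ in both media, and by more under tangeretin, with interactions of 1.19 (SE 0.13) and 0.98 (SE 0.13). MET5 and MET2 had interactions of 0.91 and 0.73.

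In the other direction, HO fell under tangeretin and rose without it (0.43), an interaction of -1.16 (SE 0.18, adjusted p = 0.0129), and PBR1 did so with -0.80 and 0.51. PBI2, an inhibitor of vacuolar proteinase B, read 9.69, 9.85 and 9.91 in WT and 8.74, 9.22 and 9.78 in sgs1Δ, which overlapped, and was not called under tangeretin (adjusted p = 0.0509), although its interaction was -1.80 (SE 0.32, adjusted p = 0.0167). RGP1, of a Golgi exchange factor, and YET1, of the endoplasmic reticulum, had interactions of -1.21 and -1.12 and were not called under tangeretin. CTR1 fell in both media and by more under tangeretin, with an interaction of -0.86 (adjusted p = 0.0129), and MIH1, at -0.87 under tangeretin and -0.20 without it, had -0.68. The count of genes called in the interaction depended on single arrays, from 7 without WT control array 2 to 343 without WT control array 3. All 7 had interactions above 0, so no gene with an interaction below 0 kept its call without WT control array 2.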

How the data were processed

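Total RNA from hot phenol extraction was turned into Cy5-labelled cDNA and read on 1-colour Phalanx yeast OneArrays, per the labels' protocols. The deposited raw values are intensities per spot, with a scanner flag, per the file headers. Spots printed empty had medians of 0 to 1, so background had been taken off before deposit. The authors also deposited a table of log2 values with a median of about 10 on each array, with no method stated in the labels or headers, and it served as an alternative. Array by array, it correlated at 0.9993 to 0.9999 with log2 of the raw values. The number of arrays limits the precision.

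Of 9800 spots, 2158 were empty and 514 were controls, which left 6958 probes, and 26 probes of rRNA or Ty elements were left out. Names came from the files and from RefSeq R64, which matched 6355 of the 6958 probes. A locus ID was found for 6786 probes, and 325 probes listed several genes. Probes detected on fewer than 3 arrays of the 12 (301) were left out. Intensities below 0 were set to 0, 50 was added, the sums were quantile normalized, and log2 was then taken. The model (limma 3.58.1, R 4.3.3, lmFit and eBayes) held 4 groups of 3 arrays, with 8 residual degrees of freedom and 13.7 after moderation, and the script was tested on simulated data.

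Genes were picked by rule: the 12 largest changes each way outside chromosome II without overlap, the 4 lowest adjusted p among called genes of each list, the 6 largest each way on chromosome II after centring, the 5 largest each way in the interaction, and 11 genes always followed. These rules picked 201 genes, and the text does not name all of them. The text names 80 further genes, chosen after their values were seen. The comparison and its gene lists were chosen with earlier results of these data known. A further gene list is not reported here. Alternatives covered the offset, normalization, probe filters, the model and leaving out each array.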

Additional observations from a re-analysis of the deposited data

Results flagged for a closer look

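For 24 of the genes named, the strain difference under tangeretin differed from that in control medium by the interaction in limma (adjusted p under 0.05 over all 6288 genes, 3 arrays per group). The values given here are the difference under tangeretin less the difference in control medium, on the log2 scale.

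The interaction was above 0 for 16 of these genes. It was 2.14 for YGL072C, 1.47 for HSP30 and 1.47 for ATP8, 1.26 for YOR053W and 1.24 for ITT1. Among mating genes it was 1.19 for MF(ALPHA)2 and 0.98 for SAG1. In methionine and sulfate metabolism it was 0.91 for MET5, 0.73 for MET2 and 0.73 for MET3. Stress and carbon genes followed, with 0.82 for MOH1, 0.67 for GRE1, 0.55 for HXT5 and 0.54 for HAP4. It was 0.67 for PDR12, the acid pump, and 0.51 for SNO1.

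The interaction was below 0 for 8. It was -1.80 for PBI2, -1.32 for PBR1, -1.21 for RGP1, -1.16 for HO and -1.12 for YET1. The copper transporter CTR1 had -0.86, the phosphatase MIH1 -0.68 and RSB1 -0.62. Of the 24, 17 missed the threshold under at least 1 alternative, all 17 of them without WT control array 2, and none changed sign under any. All 8 genes below 0 were among the 17.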

How the results depend on the processing

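The chromosome II gap between the strains ran from 0.87 to 1.02 over the 10 alternatives of offset, normalization, probe filter and probe summary, and from 0.96 to 1.00 with each of the 6 tangeretin arrays left out in turn. With brightness as a covariate over the 12 arrays, a fit added after the data were seen, it was 0.92 (SE 0.05). Leaving out each of the 12 arrays gave 2363 to 3109 calls under tangeretin, 218 to 265 on chromosome II after centring, and 2296 to 3326 in control medium. With brightness as a covariate the calls were 1106 under tangeretin, 134 on chromosome II after centring and 792 in control medium, and 294, 32 and 295 of the calls made without it were of at least 2-fold. The interaction was the least settled count. Against 93 it gave 55 with 75th percentile scaling, 44 with the authors' log2 values, 1520 with array weights, 203 with brightness, 19 at 2-fold, and 7 to 343 as single arrays were left out. The share of its calls that were higher was 50.5%, 65.9% with the authors' values, 40.7% with the replicate block, and from 37.5% without sgs1Δ tangeretin array 3 to 78.6% without WT tangeretin array 2 and 100% of 7 without WT control array 2. The cause of these shifts was not tested. Single arrays also moved the calls of 9 of the 43 gene lists by over 1.5 times: large and small ribosomal proteins, histones, Sgs1 partners, recombination, excision and bypass, replication, proteasome, and tubulin and kinetochore. WT tangeretin array 1 took replication from 16 lower to 9 and Sgs1 partners from 8 lower to 5, and 4 tangeretin arrays each took histones from 6 lower to 3.

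Of 231 genes named, values that changed sign with brightness as a covariate were those of GCV2 (-0.0936), CDS1 (0.0958), MEP3 (-0.0446), PHO80 (0.0755), TOP2 (-0.232), PAM16 (-0.181), YET1 (-0.132), PDR5 (-0.347), RMI1 (0.128) and RNR3 (0.105). Of 213 genes named and called under tangeretin, 21 lost the call with some single array left out: YOR053W, ATP15, PHO80, SPT10, MET4, GCV2, CDS1, YBL113C, TOP2, FRE1, GLC3, HMLALPHA2, MEP3, CLB5, HMG2, STE6, ZAP1, PHO3, PHO91, PTC2 and FIT1. WT tangeretin array 3 and sgs1Δ tangeretin array 3 each took 14 of these calls. Genes not called also turned elsewhere. With 75th percentile scaling PDR5 was at -0.0279, RMI1 at 0.00341 and RNR3 at 0.0576. With cyclic loess MAD1 was at 0.0303, RMI1 at 0.0237 and RNR3 at 0.0551. With quantiles taken without chromosome II RMI1 was at 0.000607 and RNR3 at 0.0136, and with the mean of the probes HTB2 was at 0.139. With single arrays left out PDR5 ranged from -0.0404 to 0.177, RMI1 from -0.142 to 0.00566 and RNR3 from -0.0894 to 0.0175.

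With the replicate number as a block 2938 genes were called under tangeretin, 260 on chromosome II after centring, 3049 in control medium and 108 in the interaction. Under tangeretin, WT and sgs1Δ arrays of the same number deviated together at 0.28, 0.25 and -0.12. The highest values with another number were 0.13, 0.0017 and 0.13. With 3 arrays per group these values cannot settle whether the numbers pair the samples. Dim probes limit what can be read: SGS1 in sgs1Δ lay below detection, and ZRT1 and LEU1 reached the ceiling. The centring of chromosome II on its genes was added after the data were seen.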
